A study of Mus musculus with 8 samples.

Results

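Histone genes were examined in spontaneous mammary tumours of mice given imiquimod cream or control cream. The members were every probe of the array whose symbol names a replication-dependent histone (Hist1h to Hist4h) or a member of the H1f, H2af or H3f families. One further probe was added because its accession leads to a current H1f symbol. This gave 73 of 24341 probes, for 69 of the 18452 genes named by the file's symbols. They were 13 probes for H2A, 18 for H2B, 13 for H3, 12 for H4, 10 for linker H1 and 7 for variants of H2A and H3. Total RNA of 8 tumours was labelled with biotin and measured on Illumina bead arrays, 4 tumours from mice on control cream and 4 from mice on topical imiquimod for 1 cycle. All mice were of strain FVB/N-TgN (MMTVneu)-202Mul, in which the mouse mammary tumour virus promoter drives the neu oncogene in mammary epithelium. Imiquimod activates TLR7, a receptor of innate immune cells for RNA. Neither the age of the mice nor how many animals gave the 4 tumours of each group is stated in the sources used here. The p-values below therefore reflect sample-to-sample spread, part of which may be technical.

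Core histones H2A, H2B, H3 and H4 form the nucleosome around which DNA is wound, and linker H1 binds the DNA between nucleosomes. Replication-dependent histone genes stand in clusters, are transcribed mainly in S phase, and give mRNAs that end in a stem-loop bound by the protein Slbp instead of a poly(A) tail. Most variant histones are made throughout the cell cycle from polyadenylated mRNAs and take the place of canonical forms, such as H2A.Z at promoters. The gene of H2A.X, a variant spread through chromatin, gives both a stem-loop and a polyadenylated mRNA. The labelling kit named in the labels primes cDNA on poly(A), so the share of each replication-dependent mRNA that these probes report is not known, and it was not tested. Copies within a class are near-identical in their coding sequence, and a probe may report several of them.

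The values are the deposited log2 signals. Array medians were 6.816 to 6.824, and the mean correlation of an array was 0.9581 to 0.9734 within its group and 0.9235 to 0.9582 across groups. The luminal keratins Krt8 and Krt18 read 11.26 and 11.87 in controls and 11.21 and 11.67 with imiquimod (group means), and Krt19 was too dim to be tested. A mixed tissue was measured, so fewer cells of a type and less RNA per cell cannot be told apart. Probes with a mean log2 signal under 6.64 over all 8 arrays were not tested. This left 58 histone probes. Of these, 4 had a control mean above the limit and an imiquimod mean below it. The members just inside the limit were Hist3h2a and Hist1h2bg, each with a mean of 6.67, and those just outside were Hist1h1t and Hist1h2ac, each with 6.63. The 15 members left out had log2 differences between -0.13 and 0.12, and none passed when all probes were tested (smallest unadjusted p = 0.133).

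Histone signals were lower in imiquimod tumours. Of the 58 histone probes tested, 12 fell and none rose at a limma adjusted p below 0.05. They were 6 of 10 H2A probes, 1 of 15 H2B, none of 9 H3, 3 of 12 H4, none of 5 linker H1 and 2 of 7 variant probes. Over all 16227 probes tested, 4.02% passed: 2.03% fell and 2% rose. An unadjusted p below 0.05 was reached by 37 of the 58, all lower. Of all probes tested, 3211 of 16227 reached it in either direction, and 10.9% reached it and were lower. The groups did not overlap in 23 of the 58, all lower with imiquimod, where 6.7% of all probes tested were lower and 5.14% higher without overlap. The log2 fold change (imiquimod minus control) was below 0 for 53 of the 58, against 9024 of all 16227 probes tested. Its median was -0.56, against -0.02 over all probes tested. Over all 73 members, dim ones included, the median was -0.40 and 61 lay below 0.

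**Figure D1:**
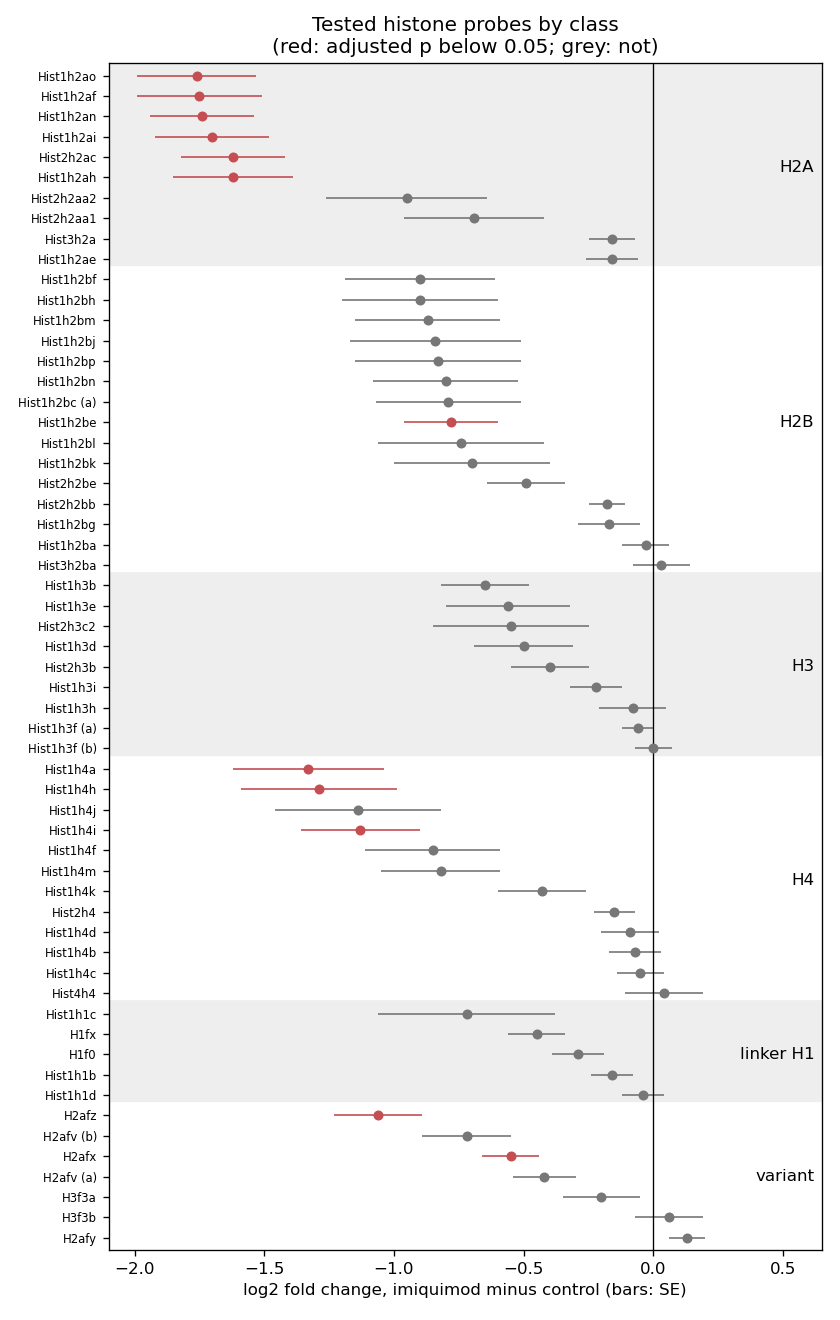
Log2 fold change (imiquimod minus control, x axis) of each of the 58 histone probes tested, by class, with its SE from limma as a bar and probes past the threshold in red. The 6 H2A probes past the threshold lie between -1.76 and -1.62, the brighter H2B probes between -0.90 and -0.70, and the variants between -1.06 and 0.13. The letters a and b tell apart the brighter and dimmer of 2 tested probes of a gene, and Hist1h2bc (a) is the brighter probe of a gene whose other probe was not tested.

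The lowest fold changes were those of replication-dependent H2A genes. Hist1h2an, Hist1h2ao, Hist1h2ai, Hist1h2af and Hist1h2ah (current symbols H2ac22, H2ac24, H2ac13, H2ac10 and H2ac12) of the large Hist1 cluster and Hist2h2ac (H2ac20) of the Hist2 cluster were each 3.06 to 3.38 times as high in control as in imiquimod tumours. The promoters of 3 of these H2A genes on chromosome 13 and that of Hist2h2ac on chromosome 3 are printed with those of Hist1h4i (H4c9) and H2afz (H2az1), to show genes of different classes that fell with imiquimod. Each is the 250 bases before the RefSeq start in GRCm38.p6, 5′ to 3′ in the direction of transcription. Hist1h2an lies at chr13:21787249-21787498 on the minus strand, Hist1h2ah at chr13:22035644-22035893 on the minus strand and Hist1h2ai at chr13:21716162-21716411 on the plus strand. Hist2h2ac lies at chr3:96220881-96221130 on the minus strand, Hist1h4i at chr13:22041363-22041612 on the minus strand and H2afz at chr3:137864237-137864486 on the plus strand. Capitals mark matches on either strand to the octamer ATTTGCAT, to CCAAT, to TATAAA or to the E2F-like letters TTTCGCGC.
Hist1h2an: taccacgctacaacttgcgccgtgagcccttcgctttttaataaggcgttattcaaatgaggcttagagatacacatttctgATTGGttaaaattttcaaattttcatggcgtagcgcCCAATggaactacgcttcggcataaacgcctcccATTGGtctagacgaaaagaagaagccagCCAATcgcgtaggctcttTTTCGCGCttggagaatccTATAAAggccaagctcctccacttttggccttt
Hist1h2ah: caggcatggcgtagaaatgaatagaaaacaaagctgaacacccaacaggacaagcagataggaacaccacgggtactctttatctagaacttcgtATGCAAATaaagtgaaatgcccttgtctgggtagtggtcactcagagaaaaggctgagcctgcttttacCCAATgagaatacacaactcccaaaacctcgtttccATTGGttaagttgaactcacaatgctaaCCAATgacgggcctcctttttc
Hist1h2ai: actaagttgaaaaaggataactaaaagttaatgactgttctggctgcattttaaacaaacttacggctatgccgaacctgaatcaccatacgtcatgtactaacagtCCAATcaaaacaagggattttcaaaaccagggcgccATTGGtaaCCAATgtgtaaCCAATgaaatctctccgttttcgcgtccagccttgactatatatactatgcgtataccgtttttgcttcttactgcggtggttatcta
Hist2h2ac: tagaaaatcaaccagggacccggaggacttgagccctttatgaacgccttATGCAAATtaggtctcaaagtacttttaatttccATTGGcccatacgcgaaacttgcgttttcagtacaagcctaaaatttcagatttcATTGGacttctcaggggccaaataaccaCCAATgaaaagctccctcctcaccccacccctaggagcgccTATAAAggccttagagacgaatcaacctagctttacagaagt
Hist1h4i: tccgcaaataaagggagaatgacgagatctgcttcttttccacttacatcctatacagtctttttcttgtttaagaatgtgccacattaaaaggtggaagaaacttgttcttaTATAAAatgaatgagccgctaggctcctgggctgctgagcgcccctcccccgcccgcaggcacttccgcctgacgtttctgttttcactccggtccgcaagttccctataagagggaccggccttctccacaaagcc
H2afz: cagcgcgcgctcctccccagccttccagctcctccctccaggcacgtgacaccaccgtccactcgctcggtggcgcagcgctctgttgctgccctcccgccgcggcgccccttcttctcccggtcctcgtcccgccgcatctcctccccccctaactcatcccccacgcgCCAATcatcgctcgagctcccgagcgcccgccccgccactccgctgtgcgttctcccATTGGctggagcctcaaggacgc

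Of the 69 member genes, 63 had a promoter in the RefSeq table, and the same letters were counted in their 300-base windows, from 250 bases before to 50 after the start. The octamer, known as a binding site of Oct-1 in H2B promoters, was present in 7 of 13 H2A and 7 of 14 H2B promoters, in none of 10 H3, 11 H4 or 10 linker H1 promoters, in 1 of 5 variant promoters (H3f3b), and in 1.74% of all 32851 promoters of the table. CCAAT, the element bound by NF-Y, stood in all H2A, H2B and H3 promoters found, in 3 of 11 H4, 7 of 10 linker H1 and 4 of 5 variant promoters and in 37.4% of all. TATAAA was in 8 of 13 H2A, 8 of 14 H2B, 4 of 10 H3, 7 of 11 H4, 4 of 10 linker H1 and 1 of 5 variant promoters (13.6% of all). TTTCGCGC was in 3 H2A and 4 H2B promoters and in none of the other classes (0.323% of all). These counts are not independent between H2A and H2B. In 5 neighbouring pairs the genes face away from each other with starts 178 to 281 bases apart. Their windows overlap, so 1 site can count for both classes. Hist1h2ah and its neighbour Hist1h2bk, for example, both hold the octamer and TTTCGCGC. The TTTCGCGC of Hist1h2ah does not lie wholly within the 250 bases printed, since the windows run 50 bases past the start. Hist1h2ae, an H2A gene whose dim probe had a log2 fold change of -0.16, holds the octamer, CCAAT and TATAAA, as Hist2h2ac does. No motif contains another on either strand, and a match describes letters, not binding.

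Hist1h2an had log2 signals of 12.86, 13.42, 12.54 and 12.98 in control tumours 1 to 4 and 11.39, 11.48, 11.13 and 10.84 in imiquimod tumours 1 to 4. The mean was 12.95 ± 0.36 in controls and 11.21 ± 0.29 with imiquimod. It fell by 1.74 on the log2 scale (SE 0.20, limma adjusted p = 0.00398). Every control tumour was above every imiquimod tumour, with control 2 the highest and imiquimod 4 the lowest. Hist1h2ao, the brightest H2A probe, read 13.59, 14.28, 13.39 and 13.85 in control tumours 1 to 4 and 12.33, 12.37, 11.76 and 11.62 in imiquimod tumours 1 to 4, and fell by 1.76 (SE 0.23, adjusted p = 0.00516). Hist2h2ac, on another chromosome, read 13.20, 13.90, 12.93 and 13.39 in control tumours 1 to 4 and 11.80, 12.03, 11.61 and 11.51 in imiquimod tumours 1 to 4, and fell by 1.62 (SE 0.20, adjusted p = 0.00462). Both followed the order of tumours seen for Hist1h2an. The mean of Hist1h2ao was 13.78 ± 0.38 in controls and 12.02 ± 0.38 with imiquimod, and that of Hist2h2ac 13.36 ± 0.41 in controls and 11.74 ± 0.23 with imiquimod.

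Hist1h2ai read 13.33, 14.01, 13.10 and 13.57 in control tumours 1 to 4 and 12.03, 12.18, 11.52 and 11.49 in imiquimod tumours 1 to 4. Hist1h2af read 12.73, 13.46, 12.43 and 12.81 in control tumours 1 to 4 and 11.41, 11.43, 10.90 and 10.66 in imiquimod tumours 1 to 4. Hist1h2ah, the dimmest of the 6, read 11.05, 11.68, 10.89 and 11.28 in control tumours 1 to 4 and 9.98, 9.97, 9.27 and 9.22 in imiquimod tumours 1 to 4. In each of these 3, every control was above every imiquimod tumour. Group means were 13.50 ± 0.39 in controls and 11.81 ± 0.35 with imiquimod for Hist1h2ai, 12.86 ± 0.43 in controls and 11.10 ± 0.38 with imiquimod for Hist1h2af and 11.22 ± 0.34 in controls and 9.61 ± 0.42 with imiquimod for Hist1h2ah. These 3 fell, with log2 fold changes of -1.70, -1.75 and -1.62 (SE 0.22, 0.24 and 0.23), with limma adjusted p between 0.00517 and 0.00758. The 6 probes moved nearly as one: control 2 was the highest and control 3 the lowest control in all 6, and imiquimod 4 was the lowest imiquimod tumour in all 6. In imiquimod 1 to 4 their median log2 difference from the control mean was -1.46, -1.37, -1.96 and -2.06. Since they share most of their sequence, they may report 1 signal or several. All 6 stayed past the threshold with any single tumour left out (adjusted p up to 0.0303).

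Not every H2A probe behaved so. Hist2h2aa2 (H2ac19) read 11.69, 9.95, 10.40 and 10.63 in control tumours 1 to 4 and 9.64, 9.88, 9.72 and 9.64 in imiquimod tumours 1 to 4, which does not overlap between the groups. The difference of -0.95 (SE 0.31) did not pass (adjusted p = 0.127). Its neighbour copy Hist2h2aa1 (H2ac18) had -0.69 (SE 0.27, adjusted p = 0.194). In both, control 1 was the highest tumour and control 2 the lowest control, unlike in the 6 that fell. Without control 1 they had -0.60 and -0.38, and neither passed. Hist1h2ae and Hist3h2a, with control means of 7.21 and 6.75, each had -0.16. Hist1h2aa, Hist1h2ab and Hist1h2ac were too dim to be tested.

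**Figure D2:**
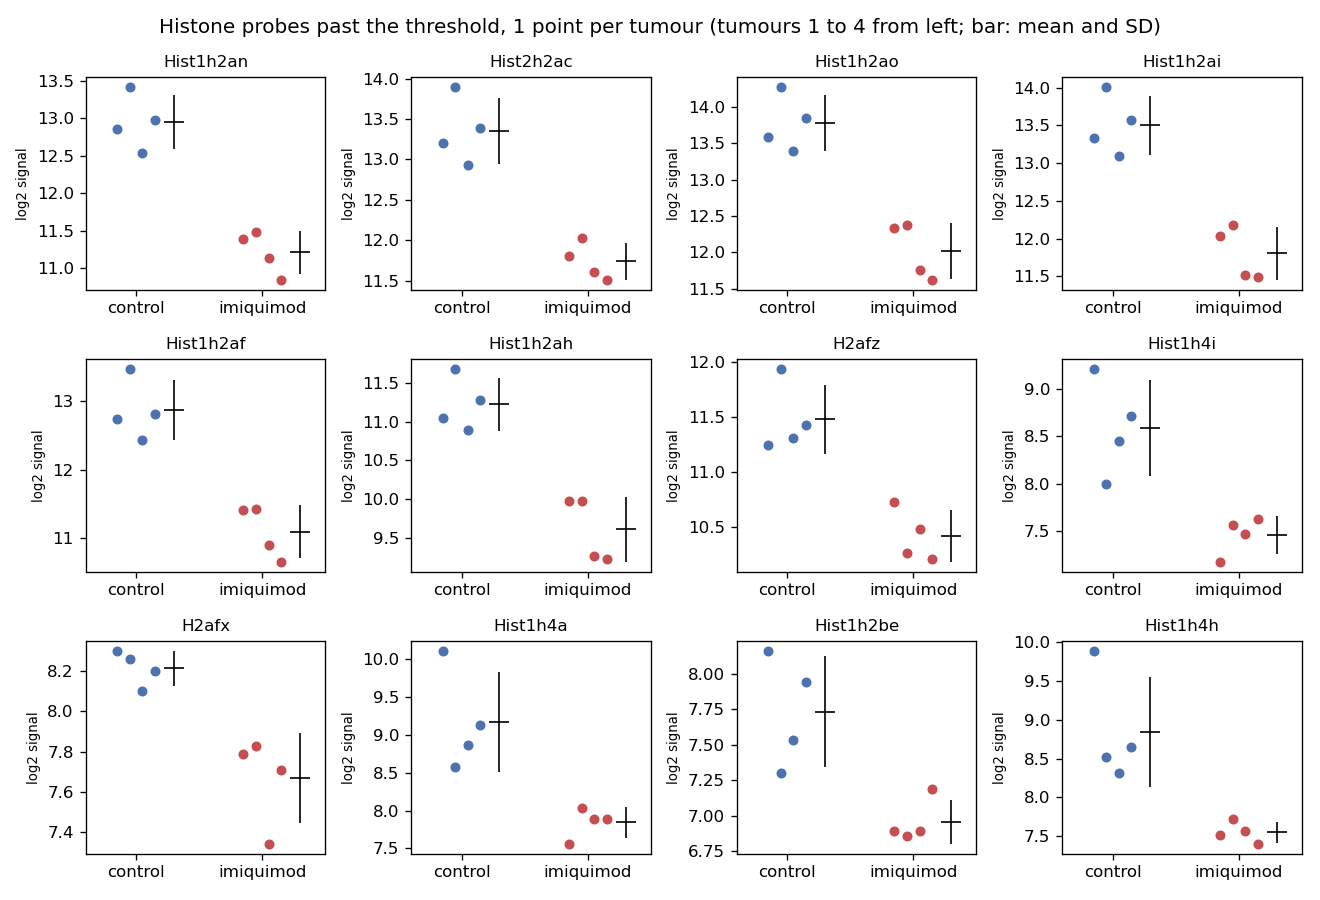
Log2 signal (y axis, a scale of its own in each panel) of the 12 histone probes past the threshold, with 1 point per tumour and the mean and SD of each group of 4 as a bar. The groups do not overlap in any panel. Control 2 is the highest point in the 6 H2A panels and in H2afz, and control 1 in the other 5.

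H2B, the partner of H2A in the nucleosome, had log2 fold changes below 0 in 14 of 15 probes tested. Only 1 of 15 H2B probes tested passed, where 2.03% of all probes fell. It was Hist1h2be (H2bc6), with log2 signals of 8.16, 7.30, 7.53 and 7.94 in control tumours 1 to 4 and 6.89, 6.86, 6.89 and 7.19 in imiquimod tumours 1 to 4. The mean was 7.73 ± 0.39 in controls and 6.96 ± 0.16 with imiquimod. It fell by 0.78 (SE 0.18, limma adjusted p = 0.0471), with every imiquimod tumour below every control. It did not pass when control 1, 3 or 4 or any single imiquimod tumour was left out (adjusted p up to 0.115).

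The 9 brighter H2B probes, with a mean log2 signal of at least 7.5, had log2 fold changes between -0.90 and -0.70, and none passed (adjusted p from 0.121 to 0.233). The brightest of the class, 1 of 2 Hist1h2bc probes, read 11.29, 9.92, 10.38 and 10.48 in control tumours 1 to 4 and 9.38, 9.95, 9.44 and 10.15 in imiquimod tumours 1 to 4. Its log2 fold change was -0.79 (SE 0.28, adjusted p = 0.16), while the other Hist1h2bc probe was too dim to be tested. Hist1h2bf (H2bc7) read 10.73, 9.36, 9.69 and 9.82 in control tumours 1 to 4 and 8.59, 9.29, 8.79 and 9.34 in imiquimod tumours 1 to 4, and of the 9 it was the one whose groups did not overlap. Hist1h2bl (H2bc13) read 10.14, 8.59, 9.02 and 9.14 in control tumours 1 to 4 and 8.02, 8.86, 8.30 and 8.74 in imiquimod tumours 1 to 4. In all 9 probes control 1 was the highest and control 2 the lowest control, and imiquimod 1 was the lowest imiquimod tumour. Control 1 stood above the control mean by 0.77 to 0.92 and control 2 below it by log2 differences of -0.68 to -0.54. Imiquimod 1 to 4 had median log2 differences from the control mean of -1.22, -0.52, -1.05 and -0.56.

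The order of tumours thus differed between the 6 H2A probes that fell and the 9 brighter H2B probes. It did not separate the classes, since the H2A probes Hist2h2aa1 and Hist2h2aa2 had the control order of the H2B probes at both ends. Control 2 was highest for the 6 H2A probes that fell and lowest for the 9 H2B probes, and imiquimod 4 was lowest for those H2A probes and the highest or next to the highest imiquimod tumour for the H2B probes. Without control 1 the 9 H2B probes had log2 fold changes between -0.63 and -0.41, with a median of -0.55 in place of -0.83, and none passed. The 6 H2A probes then had -1.82 to -1.67, and all 6 passed. Among the remaining H2B probes, Hist2h2be (H2bc21) and Hist2h2bb (H2bc18) did not overlap between the groups but did not pass (-0.49 and -0.18, adjusted p = 0.101 and 0.19). Hist1h2bg, Hist3h2ba and Hist1h2ba, the last a testis form, lay near the array median and had -0.17, 0.03 and -0.03.

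**Figure D3:**
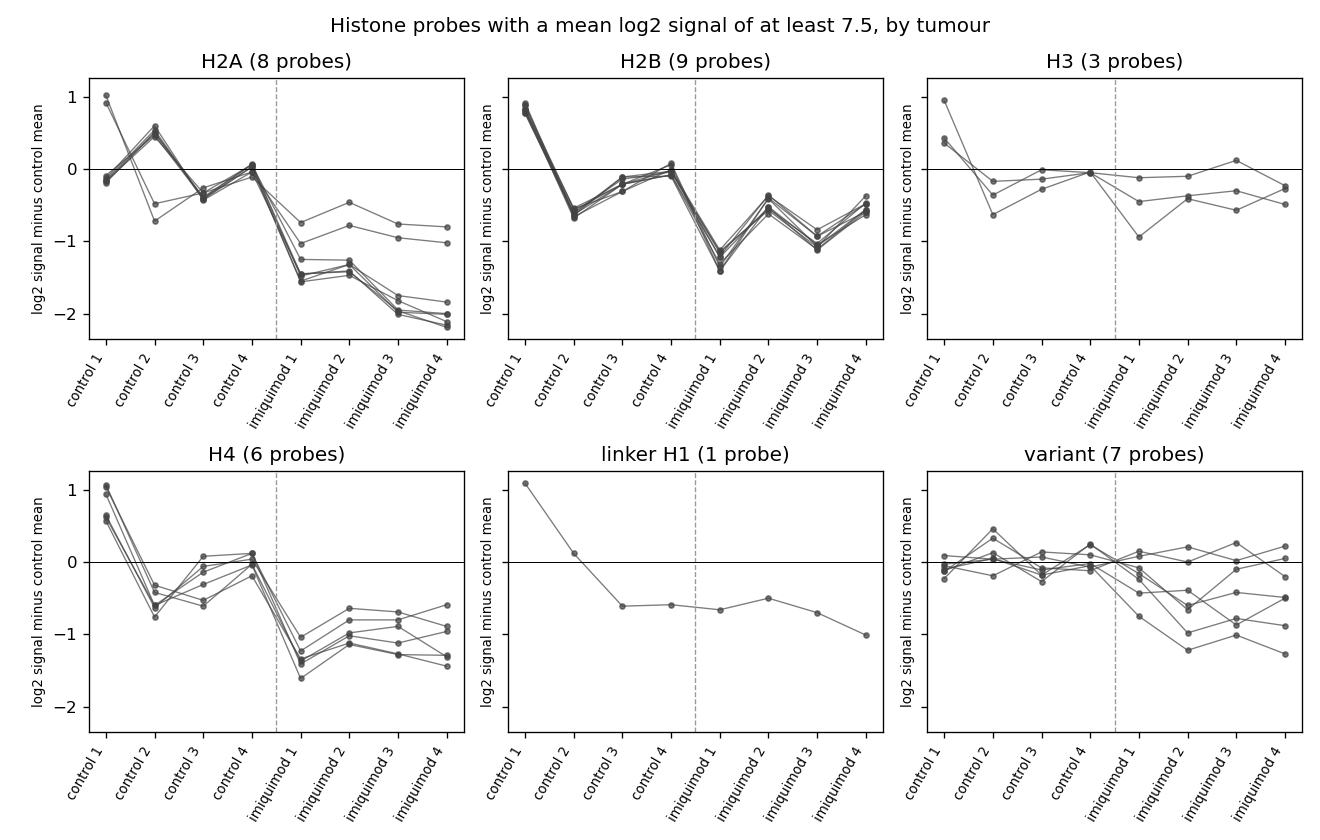
Log2 signal minus the control mean (y axis) in each tumour (x axis) for the tested histone probes with a mean of at least 7.5, by class, with the points of 1 probe joined by a line. H2B probes run close together, high in control 1 and low in control 2 and imiquimod 1, while 6 of 8 H2A probes are highest in control 2 and lowest in imiquimod 4.

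Several H2A and H2B genes lie side by side and are transcribed away from each other from a shared region, so that 1 promoter region serves both. Among the members, 5 such pairs were found in the RefSeq annotation with starts at most 1000 bases apart, and both genes were tested in 4. Hist1h2an and Hist1h2bp, with starts 240 bases apart, had log2 fold changes of -1.74 (SE 0.20) and -0.83 (SE 0.32). Hist1h2ai and Hist1h2bl (229 bases) had -1.70 (SE 0.22) and -0.74 (SE 0.32), and Hist1h2ah and Hist1h2bk (178 bases) had -1.62 (SE 0.23) and -0.70 (SE 0.30). The difference between the partners was -0.91, -0.95 and -0.91 and did not pass (exact permutation tests, two-sided, p = 0.143, 0.143 and 0.114, adjusted over the 4 pairs 0.191 each, where the smallest possible is 0.0286). In all 3 pairs the H2A signal minus the H2B signal of control 1 lay within the range of the imiquimod tumours, and that of control 2 was the highest. In Hist1h2ae and Hist1h2bg (180 bases), both dim, the difference was 0.02 (exact p = 0.914). The comparison of these pairs was chosen after the values were seen, and a ratio of 2 probes also depends on how each responds.

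**Figure D4:**
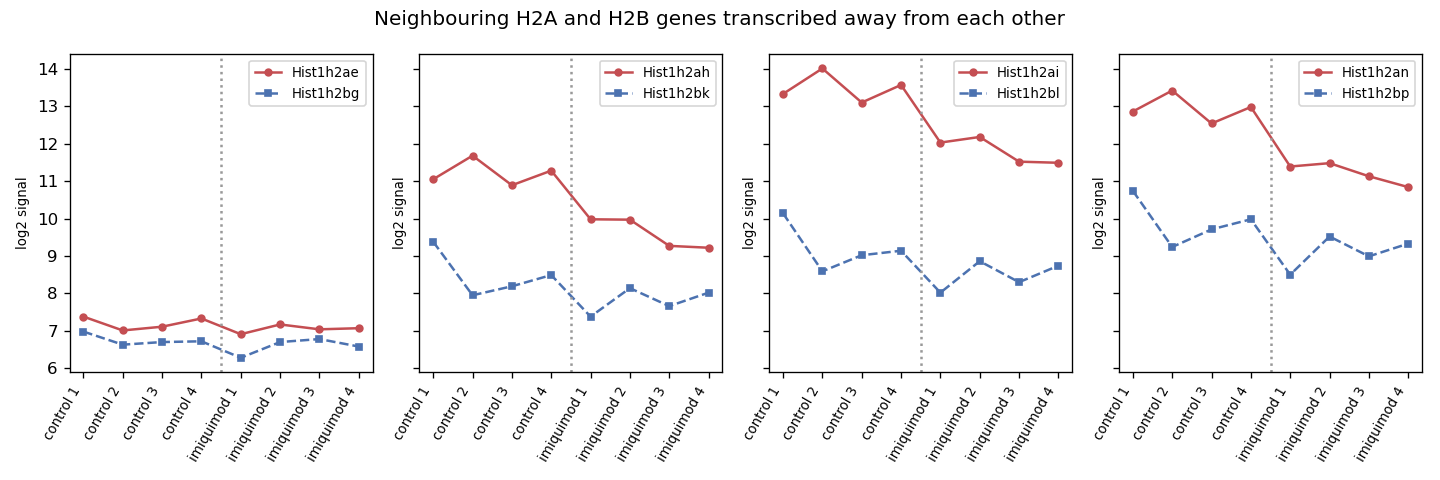
Log2 signal (y axis) in each tumour (x axis) of the H2A gene (red, solid) and the H2B gene (blue, dashed) of 4 neighbouring pairs, with the points of 1 probe joined by a line. In the 3 brighter pairs the H2A genes are highest in control 2 and the H2B genes in control 1. Levels of different probes are not comparable.

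H4 probes fell in 3 of 12 cases, where 2.03% of all probes fell. Hist1h4a (H4c1), the brightest, read 10.11, 8.58, 8.86 and 9.13 in control tumours 1 to 4 and 7.56, 8.03, 7.89 and 7.89 in imiquimod tumours 1 to 4, and fell by 1.33 (SE 0.29, limma adjusted p = 0.0389). Hist1h4h (H4c8) read 9.89, 8.52, 8.32 and 8.65 in control tumours 1 to 4 and 7.51, 7.72, 7.57 and 7.40 in imiquimod tumours 1 to 4, and fell by 1.29 (SE 0.30, adjusted p = 0.048). Hist1h4i, whose promoter is printed, read 9.21, 8.0, 8.45 and 8.71 in control tumours 1 to 4 and 7.18, 7.57, 7.47 and 7.63 in imiquimod tumours 1 to 4, and fell by 1.13 (SE 0.23, adjusted p = 0.0309). In each, control 1 was the highest tumour and the groups did not overlap. Group means were 9.17 ± 0.67 in controls and 7.84 ± 0.20 with imiquimod for Hist1h4a, 8.85 ± 0.71 in controls and 7.55 ± 0.13 with imiquimod for Hist1h4h and 8.59 ± 0.51 in controls and 7.46 ± 0.20 with imiquimod for Hist1h4i. The calls depended on single tumours. Hist1h4a no longer passed when control 3 or 4 or any imiquimod tumour was left out (adjusted p up to 0.0912), Hist1h4h when any tumour but control 1 was (up to 0.12) and Hist1h4i when any tumour but control 1, control 2 and imiquimod 1 was (up to 0.0834). Leaving out control 1 lost none of these 3, with log2 fold changes of -1.02, -0.95 and -0.92.

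Another 3 H4 probes of similar brightness, Hist1h4j, Hist1h4f and Hist1h4m, had log2 fold changes of -1.14, -0.85 and -0.82 that did not pass (adjusted p = 0.0903, 0.104 and 0.0892). Hist1h4j and Hist1h4m did not overlap between the groups, nor did the dimmer Hist1h4k (-0.43, and -0.25 without control 1). Hist1h4f and Hist1h4m passed without control 2. The other 5 H4 probes, all with control means of at most 7.14, had values between -0.15 and 0.04. H4 genes encode nearly the same protein, and which copies each probe reports was not tested.

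No H3 probe passed among 9 tested, where 2.03% of all probes tested fell. Of the 9, 4 had an unadjusted p below 0.05, all lower, where 10.9% of all probes tested reached it and were lower. Hist1h3b (H3c2) came nearest and read 8.02, 7.17, 7.42 and 7.40 in control tumours 1 to 4 and 6.73, 7.0, 6.95 and 6.76 in imiquimod tumours 1 to 4. Its log2 fold change was -0.65 (SE 0.17, limma adjusted p = 0.0664), with no overlap between the groups, and it passed without control 2. Hist1h3d, also without overlap, had -0.50 (adjusted p = 0.192), while Hist1h3e, Hist2h3c2, Hist2h3b and Hist1h3i, which overlapped, had -0.56, -0.55, -0.40 and -0.22. These 5 had control 1 as their highest tumour, and without it they had -0.29, -0.34, -0.23, -0.26 and -0.14 in the same order, none past the threshold. The brightest H3 probe, Hist1h3h (H3c10), read 9.87, 9.34, 9.36 and 9.46 in control tumours 1 to 4 and 9.39, 9.41, 9.63 and 9.28 in imiquimod tumours 1 to 4. Its groups overlapped, and the log2 difference was -0.08 (SE 0.13, adjusted p = 0.776), or 0.04 without control 1. The 3 Hist1h3f probes lay between 6.42 and 6.91 in mean log2 signal, and the 2 tested had -0.06 and 0.00.

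Linker histones did not pass in any of 5 probes tested, where 2.03% of all probes tested fell. Of the 5, 2 had an unadjusted p below 0.05, both lower, where 10.9% of all probes tested reached it and were lower. Hist1h1c (H1f2), the brightest and known also as a polyadenylated transcript, read 12.13, 11.16, 10.43 and 10.45 in control tumours 1 to 4 and 10.38, 10.55, 10.34 and 10.03 in imiquimod tumours 1 to 4. Control 1 was far above the rest, and the log2 fold change of -0.72 (SE 0.34, adjusted p = 0.289) became -0.36 without it. The replication-independent H1fx (H1f10) read 7.02, 7.38, 6.90 and 7.03 in control tumours 1 to 4 and 6.65, 6.78, 6.56 and 6.52 in imiquimod tumours 1 to 4, and H1f0, which accumulates in cells that stop dividing, read 7.81, 7.49, 7.36 and 7.35 in control tumours 1 to 4 and 7.21, 7.25, 7.19 and 7.19 in imiquimod tumours 1 to 4. Neither overlapped between the groups, and their log2 fold changes were -0.45 (SE 0.11, adjusted p = 0.057) and -0.29 (SE 0.10, adjusted p = 0.158). Without control 1, its highest tumour, H1f0 had -0.19. Hist1h1b and Hist1h1d had -0.16 and -0.04. Hist1h1a, Hist1h1e, the testis forms Hist1h1t and 1700026P10Rik (H1f7) and the oocyte form H1foo (H1f8) were too dim to be tested.

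Among the variants, 2 of 7 probes tested fell, both of H2A genes, where 2.03% of all probes tested fell. The H2A.Z gene H2afz read 11.25, 11.94, 11.31 and 11.43 in control tumours 1 to 4 and 10.73, 10.26, 10.48 and 10.21 in imiquimod tumours 1 to 4, and fell by 1.06 on the log2 scale (SE 0.17, limma adjusted p = 0.0128), or 2.09 times. Averaged by group, H2afz was 11.48 ± 0.31 in controls and 10.42 ± 0.24 with imiquimod. Every imiquimod tumour was below every control, and the call held with any 1 tumour left out (adjusted p up to 0.0398). H2afx (H2ax), the variant phosphorylated at DNA breaks, read 8.30, 8.26, 8.10 and 8.20 in control tumours 1 to 4 and 7.79, 7.83, 7.34 and 7.71 in imiquimod tumours 1 to 4, and fell by 0.55 (SE 0.11, adjusted p = 0.0315), without overlap. Averaged by group, H2afx was 8.22 ± 0.09 in controls and 7.67 ± 0.22 with imiquimod. That call was lost without any 1 control or without imiquimod 4 (adjusted p up to 0.0801). H2afv, which encodes the second H2A.Z protein, has 2 probes. The dimmer one read 10.18, 10.43, 10.03 and 10.55 in control tumours 1 to 4 and 10.06, 9.32, 9.51 and 9.42 in imiquimod tumours 1 to 4, a log2 difference of -0.72 (SE 0.17, adjusted p = 0.0552). The brighter one read 11.28, 11.43, 11.20 and 11.62 in control tumours 1 to 4 and 11.22, 10.78, 10.96 and 10.89 in imiquimod tumours 1 to 4, a log2 difference of -0.42 (SE 0.12, adjusted p = 0.0925). Imiquimod 1 lay within the control range for both, and both passed without it.

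No difference passed for the genes of the replacement H3 variant, whose placing in chromatin is not tied to S phase. H3f3a read 9.65, 9.51, 9.84 and 9.80 in control tumours 1 to 4 and 9.62, 9.04, 9.60 and 9.75 in imiquimod tumours 1 to 4, and H3f3b read 11.01, 11.47, 11.06 and 11.02 in control tumours 1 to 4 and 11.29, 11.14, 11.41 and 10.94 in imiquimod tumours 1 to 4. The groups overlapped in both, with log2 fold changes of -0.20 (SE 0.15, adjusted p = 0.529) and 0.06 (SE 0.13, adjusted p = 0.874). Without imiquimod 2, the lowest tumour for H3f3a, its value was -0.04. H3f3b had 0.01 without control 1 and -0.02 without imiquimod 3. H2afy (Macroh2a1), which encodes the large macroH2A variant of silent chromatin, read 9.03, 9.09, 9.13 and 8.99 in control tumours 1 to 4 and 9.14, 9.27, 9.07 and 9.28 in imiquimod tumours 1 to 4. Its log2 fold change of 0.13 (SE 0.07, adjusted p = 0.359) was the highest of the 58 probes.

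The histone probes past the threshold were brighter ones. Of 13 tested histone probes with a mean log2 signal under 7, none passed and the median log2 fold change was -0.07, against 0.0575% lower calls and a median of -0.01 over all 6960 probes of that range. Between 7 and 8, 2 of 14 fell (median -0.50), where 2.24% of all probes of that range fell (median -0.03). Between 8 and 9, 3 of 9 fell (median -0.85), where 4.46% of all fell (median -0.05). From 9 upward 7 of 22 fell (median -0.86), where 5.47% of 2176 probes of that range fell and their median was -0.05. A normexp background correction at an offset of 16 was also tried, on the deposited signals and not on raw intensities. The 58 members then had a median of -0.76 and 14 passed. Over all 16227 probes tested the median was -0.032 and 685 passed in either direction. Whether the larger folds are nearer to the true ones was not tested.

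**Figure D5:**
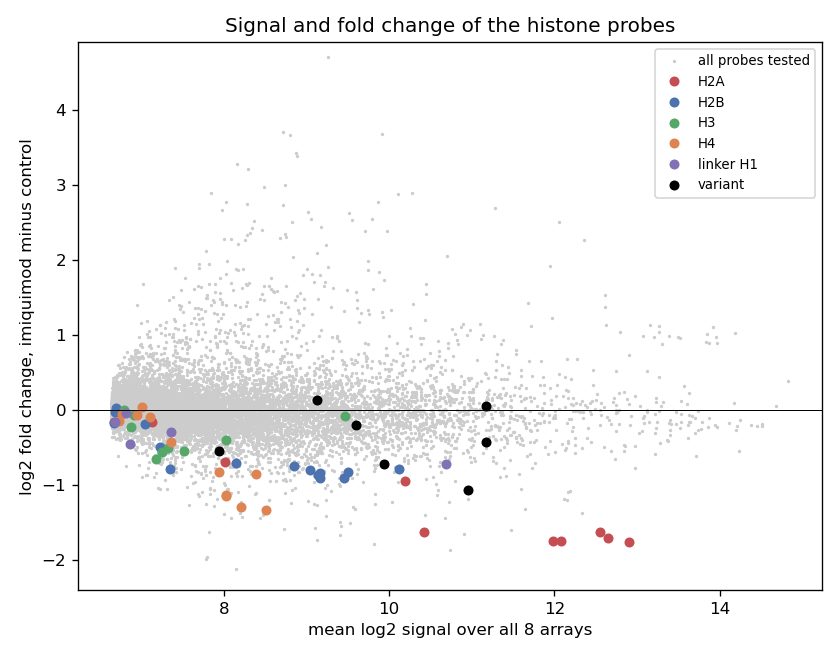
Mean log2 signal over all 8 arrays (x axis) and log2 fold change, imiquimod minus control (y axis), of the 58 histone probes by class over all 16227 probes tested in grey. Histone probes with a mean under 7 lie between -0.45 and 0.03, and the 6 H2A probes that fell lie between -1.76 and -1.62 at means above 10.

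Genes that supply and place histones were read from the same fit, by their brightest probe. Over all probes tested, 2.03% fell and 2% rose. Of 11 genes tested that transcribe or process histone mRNA, 1 fell and none rose (median -0.12). It was E2f1, a transcription factor of S phase entry (log2 fold change -0.84, SE 0.12, limma adjusted p = 0.00909). Cdk2, whose complex with cyclin E activates histone transcription through Npat, had -0.39 (adjusted p = 0.0535), and the E cyclins Ccne1 and Ccne2 had -0.25 and -0.20. Npat itself had 0.04 at a control mean of 6.81, and Slbp was too dim to be tested, with means of 6.52 in controls and 6.48 with imiquimod. Of 23 genes tested on the chaperone and deposition list, 3 fell and none rose (median -0.11). The largest fall was that of Cenpa, which is not a chaperone but the H3 variant of the centromere (-1.78, SE 0.23, adjusted p = 0.00528). The others were Chaf1b, a subunit of the replication-coupled chaperone CAF-1 (-1.05, SE 0.15, adjusted p = 0.00802), and the helicase subunit Mcm2 (-0.77, SE 0.14). Mcm2 did not pass when control 1 or 3 or imiquimod 3 or 4 was left out (adjusted p up to 0.0598). The CAF-1 subunit Chaf1a had -0.50 (adjusted p = 0.0572), Daxx, which loads the replacement H3 variant, 0.64 (adjusted p = 0.0572) and Asf1b, a chaperone of new H3 and H4, -0.20 (adjusted p = 0.217).

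Of 17 S phase genes tested, 8 fell and none rose (median -0.62), where 2.03% of all probes tested fell. Those with the smallest p were the helicase subunits Mcm5 (-0.99, SE 0.09) and Mcm6 (-1.02, SE 0.11), the ribonucleotide reductase subunit Rrm1 (-1.04, SE 0.13) and the clamp loader subunit Rfc4 (-0.81, SE 0.10), with adjusted p from 0.00157 to 0.00462. Other probes of Mcm6 had -0.08 and 0.12, and another of Rfc4 had -0.19. The S phase list had 19 genes on the array, and its level is the mean log2 signal of them all, dim ones included. This level was 7.87, 8.19, 7.90 and 7.81 in control tumours 1 to 4 and 7.39, 7.31, 7.31 and 7.35 in imiquimod tumours 1 to 4. Of 12 proliferation markers tested, 11 fell, each read by its brightest probe, where 2.03% of all probes tested fell. Other probes of Mki67 had -0.08 and -0.06, another of Plk1 -0.07 and another of Cdk1 0.09. Those of Birc5 had -1.32 and -1.07, those of Cdc20 -0.82 and -0.63 and that of Ccnb1 -1.03. The level of the whole proliferation list, 14 genes on the array with dim ones included, was 8.20 to 8.38 in controls and 7.12 to 7.5 with imiquimod. Control 2 was the highest tumour of both lists. Control 1, the highest tumour for the brighter H2B and H4 probes, was not the highest control of either list.

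Markers of other cell types were read from the same arrays. List levels are means over all genes of a list on the array, with dim untested ones included. The luminal list had 9 such genes, the muscle list 8 and the B cell list 3, of which 1 was tested. Of 10 macrophage markers tested, 6 rose, where 2% of all probes tested rose. The macrophage list level was 7.98 to 8.30 in controls and 8.76 to 9.58 with imiquimod. Fibroblast markers (1 of 7 rose) lay at 6.69 to 7.09 and 6.98 to 8.51. Skeletal muscle markers (none of 7 passed) lay at 6.51 to 7.27 in controls, highest in control 1, at 6.68 and 6.58 in imiquimod 1 and 2 and at 8.41 and 8.25 in imiquimod 3 and 4. Luminal markers lay at 8.56 to 8.63 and 8.62 to 9.17, and 1 of 7 rose. Milk genes (none of 5 passed) lay at 10.67 to 11.05 in controls and spread from 10.14, in imiquimod 1, to 13.19 with imiquimod. The levels of T cell markers (6.84 to 7.06 and 6.80 to 7.21) and of B cell markers (6.44 to 6.55 and 6.55 to 6.71) overlapped or touched. What part these cells had in the histone signals was not tested. Without imiquimod 3 and 4 together, the 12 histone probes that fell had log2 fold changes between -1.51 and -0.41 in place of -1.76 to -0.55. Then 2 of them, Hist1h2an and Hist1h2ao, passed (limma adjusted p = 0.0336 and 0.0494), and the adjusted p of the other 10 reached 0.303. Over all 16227 probes tested, 127 passed in that fit of fewer arrays, in place of 653. The unadjusted limma p of the 12 was at most 0.019.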

How the data were processed

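Per the labels' protocols, biotin-labelled cRNA of 8 tumours was hybridised to Illumina bead arrays. The values the authors deposited are log2 signals, and their distribution was almost identical from array to array, which quantile normalization would give. The highest value, however, was 14.86 on every control array and 15.07 on every imiquimod array. Whether the 8 arrays were normalized together or group by group is not known, and a difference made in this step could not be told apart from treatment. Arrays shared 55.7% to 61.9% of their distinct values. For software, only affy is listed in the submitters' processing notes, without its version or use. Background correction is not given in the sources used here. Where background stays in the signal, folds of dim probes are understated. The 16 columns of per-sample values in the non-normalized table match no sample's label and were not used. Probe symbols and accessions came from that table, and current symbols from RefSeq tables (GRCm38.p6).

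Each probe was a unit. Dim probes, under a mean log2 signal of 6.64, were left out, which kept 16227. Imiquimod was compared with control by a two-sided moderated test of limma 3.58.1 in R 4.3.3 (lmFit, then eBayes, without covariates, Benjamini-Hochberg adjusted p below 0.05 over all probes tested). Values after ± are SDs (n = 4 each). On simulated data with 16227 probes and these groups, 26 of 50 changes of 0.5, 46 of 50 of 1, 48 of 50 of 2 and 50 of 50 of 3 were recovered, with 8 false calls among 178. The simulated noise was normal and independent between probes, whereas many histone probes moved together from tumour to tumour. These counts therefore check the method and give no error rate for the data. Members and lists were chosen with earlier results of these data known. Named in full were the members past the threshold, the variants and the brightest member of each class, with the 4 supply genes of smallest p in each of 3 groups. Same-numbered tumours did not deviate together (correlations of -0.01 to 0.04). The number of arrays limits the precision. Alternatives covered normalization, background, filter, variance model, array weights, probe choice, a replicate block and tumours left out.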

Additional observations from a re-analysis of the deposited data

Results flagged for a closer look

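Of 116 groups of 4 values examined (58 probes in 2 groups), 4 held a tumour far from the other 3 by Dixon's test, where chance gives about 1 in 20. In Hist1h2be, imiquimod 4 read 7.19 and the other imiquimod tumours 6.86 to 6.89. In H3f3b, control 2 read 11.47 and the other controls 11.01 to 11.06. Both dim tested probes of Hist1h3f had such a value, 6.66 in control 2 against 6.82 to 6.84 and 6.95 in imiquimod 1 against 6.85 to 6.86. Control 1, high in H2B and H4 probes, was not far enough from the other controls for this test in any of them.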

How the results depend on the processing

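In each alternative that kept all 8 tumours, 10 to 14 histone probes passed, all lower, and 569 to 742 of all probes passed in either direction. The 12 of the full fit passed without a dim filter, with 12170 probes kept, with repeated quantile normalization, median centring, either normexp offset, an intensity trend, array weights and 1 probe per gene. Robust variance lost Hist1h4a and Hist1h4h. The replicate block gave 10, losing these and Hist1h4i and gaining H1fx, and the numbers do not pair the tumours. With 1 tumour left out, 7 to 13 passed, and 309 to 1073 of all probes in place of 653. The lowest, 7, came without control 3, control 4 or imiquimod 4, the same probes being the 6 H2A and H2afz. Without imiquimod 3 and 4 together 2 passed, and 127 of all probes. Class medians kept their sign. With dim probes included they were -0.95 for H2A in place of -1.62, -0.08 for H3 in place of -0.40 and -0.08 for linker H1 in place of -0.29. Linker H1 also had -0.45 with 12170 probes kept, -0.42 with normexp at an offset of 16 and -0.34 to -0.19 with 1 tumour left out. With 1 tumour left out H3f3b ranged from -0.02 (without imiquimod 3) to 0.17 and Hist1h3h from -0.15 to 0.04 (without control 1), and neither was called. H3f3a ranged from -0.28 to -0.04, and the H3 median from -0.52 to -0.23. The cause was not tested. Signal near the array median limits what dim probes can show.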
